A study of Mus musculus with 4 samples.

Results

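Pcsk1, Pcsk2, Cpe, Pcsk1n and Scg5 encode enzymes that cut and trim prohormones in islet endocrine cells and the small proteins that assist or restrain those enzymes. The 5 genes were taken by their symbols from 38457 mouse features counted in each library, and their levels were read across cells grouped by the hormone they transcribe and across the genotype labels. Single cells from pancreatic islets, of genotype WT or Sin3A mutant by their labels, had been captured in droplets on the inDrop platform, their RNA amplified linearly, and the libraries sequenced on a NextSeq500. Each genotype label has 2 libraries, described as biological replicates. The edgeR p-values of label comparisons rest on the spread of these libraries, estimated jointly over genes. The labels used here give neither the Sin3a allele, nor a Cre driver, nor the age or sex of the mice. The number in a library's title is shared by 1 library of each label. Libraries with the lower number are called A and those with the higher number B, and runs of 4 values give first WT A, then mutant A, then WT B and last mutant B, each name meaning the library so labelled.

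Peptide hormones are made as longer precursors. In the secretory granule the serine proteases encoded by Pcsk1 and Pcsk2 cut the precursor after paired basic residues, and carboxypeptidase E, encoded by Cpe, removes the basic residues left at the new ends. Scg5 encodes the chaperone that the Pcsk2 protease needs to mature, and Pcsk1n encodes proSAAS, an inhibitor of the Pcsk1 protease. Beta cells are known to use both proteases on proinsulin, whereas alpha cells process proglucagon to glucagon mainly through the Pcsk2 protease. The Pcsk1 protease releases glucagon-like peptides from the same precursor in intestinal cells.

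In the mouse assembly GRCm38, with GENCODE M21 gene models, Pcsk1 (ENSMUSG00000021587) lies at chr13:75089826-75134861 on the plus strand and Pcsk2 (ENSMUSG00000027419) at chr2:143546156-143816285 on the plus strand. Cpe (ENSMUSG00000037852) lies at chr8:64592542-64693054 on the minus strand. Pcsk1n (ENSMUSG00000039278) lies at chrX:7919822-7924410 on the plus strand and Scg5 (ENSMUSG00000023236) at chr2:113776362-113829121 on the minus strand. Pcsk2 and Scg5 are thus on the same chromosome, on opposite strands. RefSeq start sites of build GRCm38.p6 were matched for 4 of the 5 genes, all but Cpe. They differ from the GENCODE starts for some genes, and distances below are counted from the RefSeq start. The Pcsk1 and Scg5 windows reach into the GENCODE gene, and the Pcsk2 window ends short of it. The 250 bases before the start are printed 5′ to 3′ for the convertases, whose balance is compared between gates. They are also printed for Scg5, which among the 5 genes followed Pcsk2 most closely. Capitals mark TGACG or its reverse CGTCA, the core of the cyclic AMP response element, and in Pcsk2 also the GC box GGGCGG.
Pcsk1, chr13:75089607-75089856, plus strand: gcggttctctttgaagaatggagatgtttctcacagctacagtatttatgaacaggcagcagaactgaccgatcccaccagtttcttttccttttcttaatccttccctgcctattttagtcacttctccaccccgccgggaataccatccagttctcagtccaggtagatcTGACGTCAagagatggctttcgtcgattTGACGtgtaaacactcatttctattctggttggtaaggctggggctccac
Pcsk2, chr2:143545883-143546132, plus strand: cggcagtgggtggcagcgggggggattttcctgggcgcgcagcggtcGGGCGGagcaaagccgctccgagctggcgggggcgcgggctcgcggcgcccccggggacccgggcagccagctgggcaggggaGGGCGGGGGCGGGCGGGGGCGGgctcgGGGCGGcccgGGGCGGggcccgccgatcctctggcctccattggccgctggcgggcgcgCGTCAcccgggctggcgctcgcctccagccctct
Scg5, chr2:113829092-113829341, minus strand: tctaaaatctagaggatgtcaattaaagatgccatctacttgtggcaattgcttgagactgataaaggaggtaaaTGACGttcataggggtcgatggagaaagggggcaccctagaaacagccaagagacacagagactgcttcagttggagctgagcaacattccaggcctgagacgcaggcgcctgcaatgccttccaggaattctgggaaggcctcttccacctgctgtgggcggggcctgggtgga

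The Pcsk1 window held 3 matches to TGACG on either strand, beginning 78, 75 and 50 bases before the start. The first pair overlap and form 1 full palindrome TGACGTCA. Of 32851 mouse promoter windows of the same length, 17.8% held TGACG, 0.688% held it at least 3 times and 1.55% held TGACGTCA. The Pcsk2 window held 1 match, 34 bases before the start, and was unusually rich in G and C, at 82.4% against a median of 52.4% over all windows. It held 7 GC boxes on either strand, some overlapping, where 8.47% of all windows held 3 or more. Scg5 had 1 TGACG match, 175 bases before its start, and Pcsk1n had none. These matches describe letters in a window and say nothing about binding.

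After filtering and doublet removal 6526 cells were kept, 1207, 1144, 1793 and 2382 per library, with a median of 9997, 7605, 5306 and 4448.5 counts per cell. Among them 127 barcodes occurred in more than 1 library. A cell was placed in a hormone gate when at least 2% of its counts came from 1 hormone and no other hormone reached that share. This gave 2880 insulin-gated, 1140 glucagon-gated, 216 somatostatin-gated and 69 pancreatic polypeptide-gated cells, and no ghrelin-gated cell. Cells under every gate and with collagen and other stromal transcripts (825 mesenchymal-marker cells) or vessel transcripts (298 endothelial-marker cells) served as the background for genes of endocrine cells. The insulin gate carried Nkx6-1 at 438 to 711 CPM (counts scaled to a total of 1000000 per sum) and Slc2a2 at 580 to 794, but Mafa, a marker of mature beta cells, at 0 to 0.973. Irx2, a marker of alpha cells, was at 210 to 382 CPM in the glucagon gate and at most 2.61 in the insulin gate, and Hhex, a delta cell factor, was at 359 to 1056 in the somatostatin gate and at most 27.2 in the other 2 named gates. Sin3a itself was at 25, 51.7, 41.0 and 18.5 CPM in insulin-gated cells: within A the library labelled mutant was higher and within B it was lower, so directions by label are those of the labels only. Whether counted reads lie in the altered part of Sin3a cannot be told from gene counts.

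Pcsk1 separated the hormone gates more than any other of the 5 genes. In insulin-gated cells it was at 185, 209, 219 and 126 CPM, from 1475, 1309, 1127 and 676 counts. In somatostatin-gated cells it was at 69.2, 57.7, 41.5 and 46.3 CPM, and in glucagon-gated cells at 9.97, 10.2, 6.81 and 11.6, from only 10, 8, 18 and 22 counts. The 3 gates did not overlap in any pair of libraries: the lowest insulin-gated sum was above the highest somatostatin-gated one, which in turn lay above every glucagon-gated sum. Within libraries Pcsk1 was 20.03-fold higher in insulin-gated than in glucagon-gated cells (log2 difference 4.32 ± 0.23 SE, edgeR adjusted p = 2.97e-12). It was 3.81-fold higher in insulin-gated than in somatostatin-gated cells (1.93 ± 0.23, edgeR adjusted p = 2.65e-06). Between glucagon-gated and somatostatin-gated cells the log2 difference was -2.39 ± 0.29 (edgeR adjusted p = 4.43e-06). Each difference had the same direction in 4 of 4 libraries. The call held in every alternative setting run for these 3 comparisons.

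**Figure D1:**
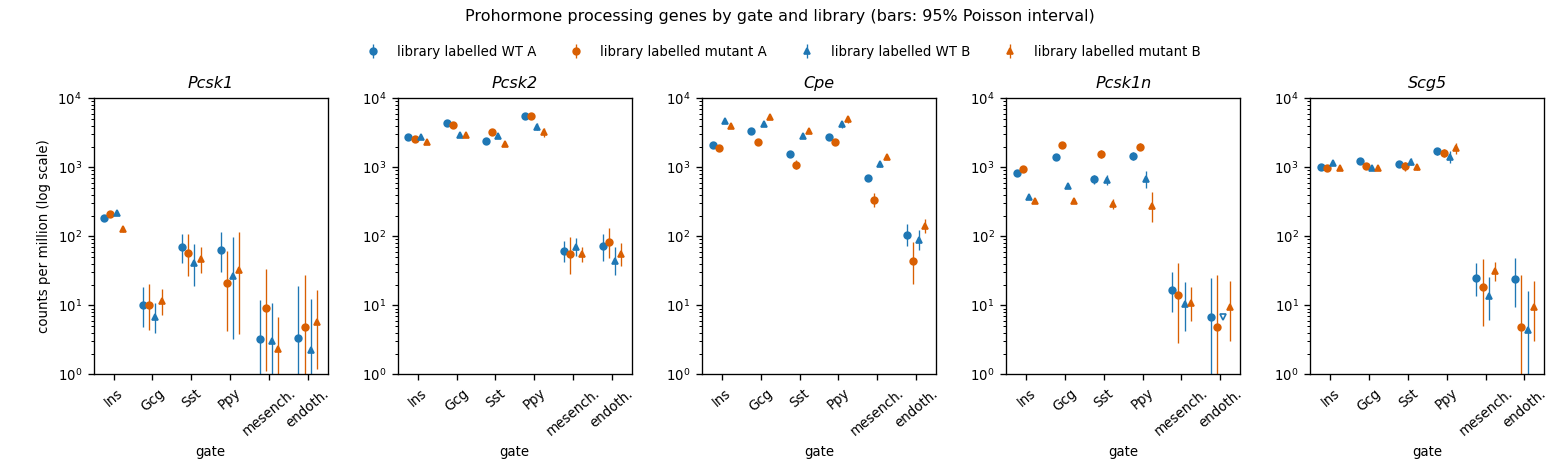
Levels of the 5 genes in CPM on a log axis, by gate, with 1 point per library and bars for the 95% Poisson interval, which covers counting error only. Ins, Gcg, Sst and Ppy are the hormone gates, and the open triangle marks the level of 3 counts for a library with no count of Pcsk1n. Pcsk1 falls from 126 to 219 in the insulin gate to 6.81 to 11.6 in the glucagon gate, while Pcsk2 stays above 2000 in every hormone gate.

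The few Pcsk1 counts outside the insulin gate were read against 2 backgrounds. In mesenchymal-marker cells Pcsk1 was at 3.31, 9.31, 3.01 and 2.34 CPM and in endothelial-marker cells at 3.41, 4.90, 2.23 and 5.72, from 1 to 3 counts per library. The glucagon-gated values lay above the mesenchymal ones in every library, by the least in mutant A. Insulin transcripts also occurred in glucagon-gated cells, and at the Pcsk1-to-insulin ratio of the insulin gate they would bring 2.07, 1.70, 3.77 and 1.22 CPM of Pcsk1. The measured level was 4.81, 6.02, 1.81 and 9.53 times that. For Pcsk1 the same quotient was 1.06, 3.98, 0.815 and 1.40 in mesenchymal-marker cells. It was 1.58, 2.88, 0.919 and 5.32 in endothelial-marker cells. The glucagon-gated quotients overlap these, and the origin of the few Pcsk1 counts was not tested. In somatostatin-gated cells the same reckoning gave 4.42, 1.75, 3.78 and 16.4 CPM, and the measured level was 15.7, 33.0, 10.99 and 2.82 times that. Mutant B stood apart in that gate, with insulin at 0.639% of counts against 0.148% to 0.356% in the other libraries and Slc2a2 at 245 CPM against 12.8 to 18.2. The part that this plays in its Pcsk1 level was not tested.

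Per cell, Pcsk1 transcripts were found in a minority of insulin-gated cells at equal depth. After each cell was thinned to 2000 counts, 28.8%, 32.3%, 33.8% and 19.1% of insulin-gated cells held a Pcsk1 count, and 81.6%, 63.2%, 64.7% and 50.3% before thinning. Shallower cells, 41, 128, 95 and 37 of them, were left out. In somatostatin-gated cells the thinned share was 8.33%, 17.4%, 10% and 10.8%, with exact binomial 95% intervals as wide as 4.95% to 38.8% in mutant A, which kept 23 cells. In glucagon-gated cells the share was 0.877%, 1.89%, 1.16% and 2.83%, and in mesenchymal-marker cells 0.893%, 4.88%, 0.667% and 0.315%. In both A libraries the glucagon-gated share was below the mesenchymal one while the CPM was above it, and with 1 and 2 positive glucagon-gated cells no order is read from these shares. Pcsk2 was present in nearly every endocrine cell at this depth, in 97.7% to 98.6% of insulin-gated, 98.1% to 100% of glucagon-gated and 96.4% to 100% of somatostatin-gated cells, against 4.88% to 12.0% of mesenchymal-marker cells. Insulin-gated cells with both convertase transcripts made up 28.6%, 31.8%, 33.4% and 18.6%, and cells with Pcsk1 but no Pcsk2 count at most 0.536%.

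Pcsk2 was high in every hormone gate and differed little between them. It was at 2746, 2534, 2747 and 2353 CPM in insulin-gated cells, at 4380, 4084, 2979 and 2958 in glucagon-gated cells and at 2403, 3218, 2849 and 2177 in somatostatin-gated cells. The glucagon-gated values were above the insulin-gated ones in 4 of 4 libraries, yet the difference did not pass the threshold (insulin minus glucagon -0.34 ± 0.15, edgeR adjusted p = 0.106). It passed with DESeq2 (adjusted p = 0.00729) and with at most 10% mitochondrial counts (edgeR adjusted p = 0.0484). Between the insulin and somatostatin gates the difference was 0.15 ± 0.15 (edgeR adjusted p = 0.580), with the insulin gate higher in 2 of 4 libraries. The glucagon gate exceeded the somatostatin gate by 0.50 ± 0.15 (edgeR adjusted p = 0.0359). That call was lost when WT A, mutant A or mutant B was left out (edgeR adjusted p = 0.458, 0.375 and 0.220), and under 6 other settings named in the closing section. In mesenchymal-marker cells Pcsk2 was at 54.6 to 70.7 CPM, 45.0-fold below the insulin gate (5.49 ± 0.19, edgeR adjusted p = 2.48e-15), the smallest unadjusted p of the 10322 genes tested.

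The balance of the convertases therefore moved by gate through Pcsk1. The log2 ratio of Pcsk1 to Pcsk2 counts was -3.89, -3.60, -3.65 and -4.22 in insulin-gated cells, -5.12, -5.80, -6.10 and -5.56 in somatostatin-gated cells and -8.78, -8.64, -8.77 and -8.00 in glucagon-gated cells. The order insulin, somatostatin, glucagon held in 4 of 4 libraries without overlap. Put as counts, insulin-gated cells had 12.1 to 18.6 Pcsk2 counts for each Pcsk1 count, somatostatin-gated cells 34.7 to 68.7, and glucagon-gated cells 255 to 439. The ratio depends on how each transcript is captured, so it is compared with itself across gates and not read as a ratio of molecules. The difference was 4.71 ± 0.63 (SD over 4 libraries) between the insulin and glucagon gates, 1.80 ± 0.61 between the insulin and somatostatin gates and 2.90 ± 0.53 between the somatostatin and glucagon gates. Each gave an exact two-sided sign-flip permutation p of 0.125, the smallest that 4 libraries allow.

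**Figure D2:**
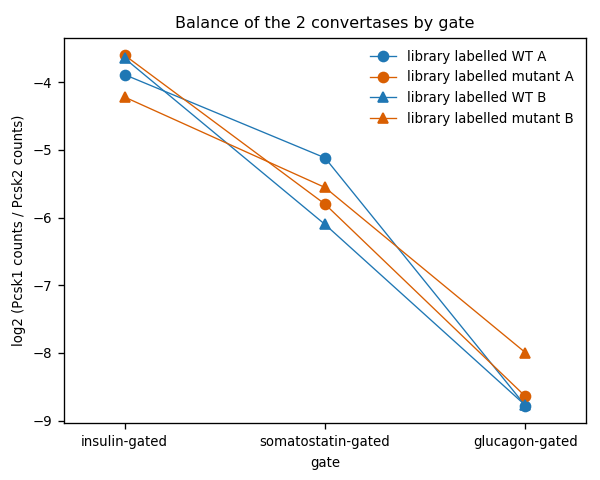
Log2 ratio of Pcsk1 to Pcsk2 counts (vertical axis) in the summed cells of 3 hormone gates, with a line joining the gates of each library. All 4 lines descend from the insulin gate (-4.22 to -3.60) through the somatostatin gate to the glucagon gate (-8.78 to -8.00).

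Cpe was expressed in all hormone gates and, unlike the other 4 genes, also well above background in mesenchymal-marker cells. Its levels were 2136, 1934, 4761 and 3957 CPM in insulin-gated cells, 3380, 2300, 4221 and 5392 in glucagon-gated cells and 1576, 1090, 2872 and 3318 in somatostatin-gated cells. In each of these gates both B libraries were above both A libraries. How many of all genes do the same was not counted, so nothing is read from this offset. Cpe was 1.70-fold higher in insulin-gated than in somatostatin-gated cells (0.77 ± 0.19, edgeR adjusted p = 0.00749) and 1.90-fold higher in glucagon-gated than in somatostatin-gated cells (0.92 ± 0.19, edgeR adjusted p = 0.00224), each in 4 of 4 libraries. The first call was lost without WT A, mutant A or WT B (edgeR adjusted p = 0.0603, 0.0940 and 0.0721) and with a gate of 5% (0.101). Both calls were lost when the fit did not treat the library as a block. Insulin-gated and glucagon-gated cells differed by -0.16 ± 0.19 (edgeR adjusted p = 0.622), with the insulin gate higher in 1 of 4 libraries.

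In mesenchymal-marker cells Cpe was at 697, 340, 1099 and 1420 CPM, against 106, 44.1, 89.3 and 143 in endothelial-marker cells. Insulin transcripts in the mesenchymal-marker cells would bring 36.1, 21.7, 80.2 and 52.4 CPM of Cpe at the ratio of the insulin gate, and the measured level was 13.7 to 27.1 times that. For Pcsk2, Pcsk1n and Scg5 the same quotient in mesenchymal-marker cells lay between 0.691 and 2.51, and for Pcsk1, from 2 or 3 counts per library, it was 1.06, 3.98, 0.815 and 1.40. A Cpe count was found in 39.0% to 81.4% of thinned mesenchymal-marker cells and in 8.82% to 24.5% of endothelial-marker cells. Insulin-gated cells were still 4.11-fold above mesenchymal-marker cells for Cpe (2.04 ± 0.20, edgeR adjusted p = 7.18e-09). The fold was 54.7 for Pcsk1, 42.0 for Pcsk1n and 46.9 for Scg5. All 5 genes were called in this comparison, in which 53.1% of all genes tested were called.

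Scg5, the chaperone of the Pcsk2 protease, was the most even of the 5 genes. Its levels were 998, 965, 1164 and 975 CPM in insulin-gated cells, 1241, 1055, 969 and 965 in glucagon-gated cells and 1121, 1039, 1208 and 1004 in somatostatin-gated cells. The 3 gates overlapped throughout. The insulin gate differed from the glucagon gate by 0.075 ± 0.18 (edgeR adjusted p = 0.831) and from the somatostatin gate by 0.090 ± 0.19 (0.825), and the glucagon gate from the somatostatin gate by 0.015 ± 0.19 (0.984). In CPM the insulin gate was below the somatostatin gate in 4 of 4 libraries, at 0.890 to 0.972 times its level, although the fitted difference was positive. The sign of each of these small differences changed with the settings, and with any 1 library left out the fitted insulin minus somatostatin difference was 0.016 to 0.040.

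Pcsk1n, the inhibitor gene, varied more between libraries than between gates. It was at 816, 938, 369 and 328 CPM in insulin-gated cells, 1395, 2084, 536 and 326 in glucagon-gated cells and 670, 1571, 659 and 292 in somatostatin-gated cells. Both A libraries lay above both B libraries in each gate, the reverse of Cpe, though in the somatostatin gate by as little as 670 against 659. A also lay above B for Pcsk2 and Scg5 in the glucagon gate and for Pcsk1 in the somatostatin gate. The share of all genes with such an offset was not counted. The insulin gate was lower than the glucagon gate in 3 of 4 libraries, but the difference did not pass the threshold (-0.52 ± 0.24, edgeR adjusted p = 0.136). It passed without mutant B (edgeR adjusted p = 0.0430) and with these gates fitted alone (0.0241). Against the somatostatin gate it was -0.12 ± 0.25 (edgeR adjusted p = 0.824), and between the glucagon and somatostatin gates it was 0.40 ± 0.25 (0.376). What the title numbers stand for is not given in the labels used here, so the offset between A and B is reported as values without a test.

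Counted over the 5 genes, 1 was called between insulin-gated and glucagon-gated cells, where 21.6% of the 10322 genes tested were called. Between insulin-gated and somatostatin-gated cells 2 were called against 14.4% of all genes, and between glucagon-gated and somatostatin-gated cells 3 were called against 9.74%. In the insulin against somatostatin comparison the split of all calls depended on scaling, with 919 higher and 563 lower under TMM but 674 higher and 697 lower under RLE size factors and 703 and 830 with DESeq2. RLE shifted the median gene by -0.12 relative to TMM, and Pcsk1 and Cpe kept their direction.

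**Figure D3:**
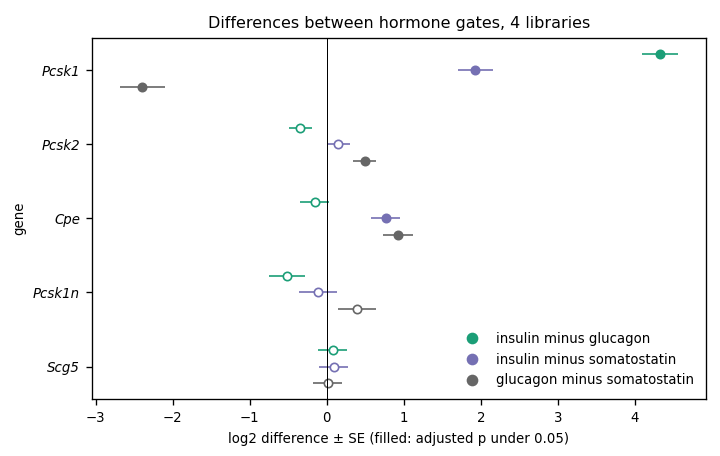
Log2 differences between hormone gates for each gene, with bars for 1 SE from edgeR over 4 libraries and filled points for an adjusted p under 0.05. Pcsk1 lies far from 0 in all 3 comparisons (4.32, 1.93 and -2.39), and the 3 differences of Scg5 lie between 0.015 and 0.090.

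Smaller groups of endocrine cells were described without a test, because some libraries held fewer than 20 of them. Pancreatic polypeptide-gated cells, 21, 19, 15 and 14 per library, had Pcsk2 at 5602, 5518, 3894 and 3204 CPM, above every other hormone gate of the same library. Scg5 was likewise highest there in each library, at 1715, 1630, 1400 and 1884 CPM. Pcsk1 rested on 10, 3, 2 and 2 counts in these cells. Cells that passed both the insulin and the somatostatin gate numbered 100, 50, 0 and 44. Their Pcsk1 level was 154, 146 and 73.3 CPM in WT A, mutant A and mutant B, between the insulin-gated and somatostatin-gated values of the same libraries. Whether such cells are single cells with both hormones or droplets that held a pair of cells was not tested.

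None of the 5 genes was called between the genotype labels in the 3 hormone gates tested. With edgeR 0 of the 5 genes, and 0% of the 16235 genes tested, were called between labels in insulin-gated cells. Without adjustment 39 genes had p under 0.05, none of the 5 among them. DESeq2 called 1 gene, and 36 had an unadjusted p under 0.05. Differences, mutant minus WT, were -0.23 ± 0.60 for Pcsk1, -0.12 ± 0.70 for Pcsk2, -0.12 ± 0.76 for Cpe, 0.075 ± 0.72 for Pcsk1n and -0.10 ± 0.66 for Scg5. Each standard error is wider than the difference it belongs to, so these fits leave wide room for change in either direction. The SE rests on spread estimated jointly over genes and not on each gene alone. For Pcsk2 and Scg5 the CPM of the 4 libraries varied little, with coefficients of variation of 7.32% and 9.08%. Both libraries labelled mutant lay below both labelled WT for Pcsk2 and Scg5, and the labels overlapped for the other 3 genes. With hormone genes left out of the totals, mutant A lay above WT A for both (log2 differences 0.14 and 0.20). The share of all genes without overlap between labels was not counted, so nothing is read from this.

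In glucagon-gated cells 0 of the 5, and 0% of 11169 genes, were called by edgeR. Before adjustment 12 genes had p under 0.05, and with DESeq2 0 genes were called and 11 had an unadjusted p under 0.05. Pcsk1 differed by 0.43 ± 0.81, Pcsk2 by -0.065 ± 0.55, Cpe by 0.039 ± 0.61, Pcsk1n by 0.29 ± 0.74 and Scg5 by -0.13 ± 0.53. Of these only Pcsk1 did not overlap between labels, at 9.97 and 6.81 CPM under WT and 10.2 and 11.6 under mutant. In somatostatin-gated cells 0 of the 5, and 0% of 4615 genes, were called, with 13 genes at an unadjusted p under 0.05 and, in DESeq2, 0 called and 2 at that level. There Pcsk1n had the largest estimate, 0.55 ± 0.72, and only Scg5 did not overlap between labels, being lower in the libraries labelled mutant. In neither gate was the share of all genes without overlap counted, so nothing is read from these cases. The difference of the label effect between insulin-gated and glucagon-gated cells was -0.63 ± 0.72 for Pcsk1. In that test 0 of the 5 and 0% of 16516 genes were called by edgeR, with 41 at an unadjusted p under 0.05. DESeq2 was not run on it.

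Within A and B the libraries labelled mutant moved in different directions for several genes. In insulin-gated cells the log2 CPM difference of Pcsk1 was 0.17 in A and -0.80 in B. That of Pcsk1n was 0.20 in A and -0.17 in B, and in somatostatin-gated cells 1.23 in A and -1.18 in B. Cpe in glucagon-gated cells was -0.56 in A and 0.35 in B. Pcsk2, Cpe and Scg5 in insulin-gated cells were lower in the library labelled mutant in both A (-0.12, -0.14 and -0.049) and B (-0.22, -0.27 and -0.25). Insulin made up 14.9%, 28.2%, 8.57% and 4.92% of counts in that gate, which lowers the share left for other genes most in mutant A. With the 8 hormone genes left out of the totals, the A differences of these 3 genes became 0.14, 0.11 and 0.20 while the B differences stayed negative. The log2 ratio of Pcsk1 to Pcsk2, which does not depend on the total, differed between labels by -0.14 in insulin-gated, 0.46 in glucagon-gated and -0.069 in somatostatin-gated cells. The exact two-sided permutation p was 1.0, 0.333 and 1.0, where 0.333 is the smallest that 2 against 2 libraries allow.

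**Figure D4:**
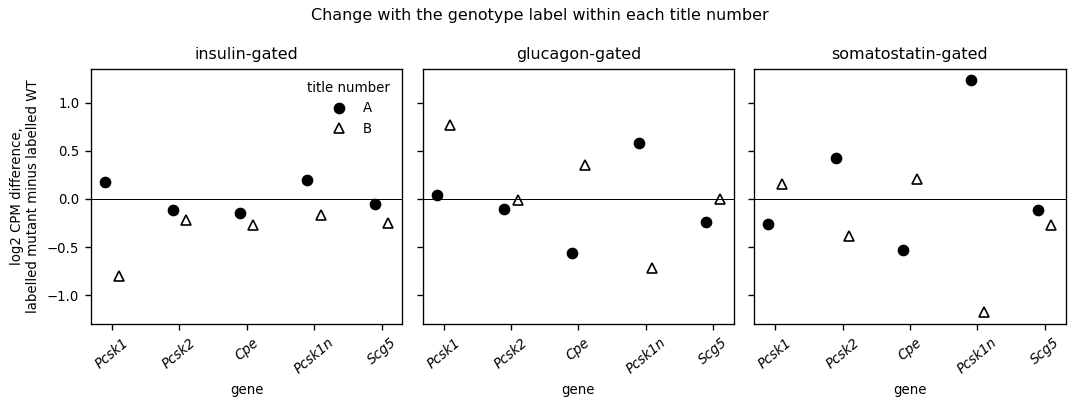
Log2 CPM difference between the library labelled mutant and the library labelled WT, separately for A (filled circles) and B (open triangles), in 3 hormone gates. Pcsk1n in the somatostatin gate lies at 1.23 in A and -1.18 in B, and Pcsk1 in the insulin gate at 0.17 and -0.80.

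Among insulin-gated cells, those with transcripts of dividing cells had slightly less of 4 of the 5 genes. Cycling cells held at least 2 counts over 8 proliferation genes after thinning to 2000 counts, and numbered 100, 83, 106 and 133. Cpe was at 1909, 1711, 4210 and 3617 CPM in cycling cells and at 2187, 1974, 4892 and 4052 in the other cells of the gate, lower in 4 of 4 libraries (-0.22 ± 0.04, edgeR adjusted p = 0.00103). Scg5 was at 811, 932, 987 and 799 against 1039, 956, 1202 and 1022 CPM, also lower in 4 of 4 (-0.28 ± 0.06, edgeR adjusted p = 0.00248). Pcsk1n was lower in 4 of 4 (-0.21 ± 0.07, edgeR adjusted p = 0.0335) and Pcsk2 in 3 of 4, the exception being mutant A (-0.21 ± 0.06, edgeR adjusted p = 0.0104).

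Pcsk1 went the other way, at 226, 230, 260 and 144 CPM in cycling cells and 175, 208, 209 and 122 in the others. It was higher in 4 of 4 libraries but did not pass the threshold (0.25 ± 0.09, edgeR adjusted p = 0.0528). It passed without mutant A (edgeR adjusted p = 0.0272) and with hormone genes left out (0.0460). So 4 of the 5 genes were called in a comparison where 16.8% of 12513 genes were called, 1218 higher and 889 lower. Without the filter on low counts the split was 746 higher and 2735 lower. That setting shifted the median gene by -0.23, and the 5 genes with it, to 0.018 for Pcsk1 and between -0.51 and -0.44 for the other 4. DESeq2 did not call Pcsk2 (adjusted p = 0.0751) or Pcsk1n (0.0802). Leaving out WT A lost Pcsk2 (edgeR adjusted p = 0.144) and Pcsk1n (0.135), leaving out mutant A lost Pcsk1n (0.109), leaving out WT B lost Pcsk2 (0.0567) and Pcsk1n (0.106), and leaving out mutant B lost Pcsk2 (0.0651). Cycling cells were deeper, with medians of 14155.5, 11082, 7878.5 and 8401 counts against 13442, 10202, 6334 and 6492, and the part of depth in these differences was not tested.

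**Figure D5:**
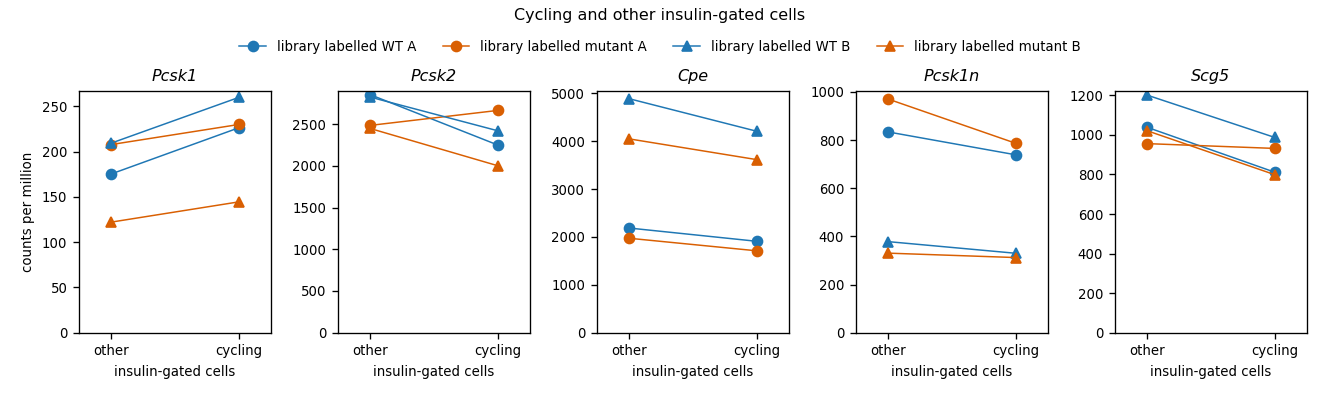
CPM of the 5 genes, on axes from 0, in other and in cycling insulin-gated cells, with a line for each library. Cpe, Pcsk1n and Scg5 descend in all 4 libraries, Pcsk2 in all but mutant A, and Pcsk1 ascends in all 4.

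The 5 genes varied little with how much insulin RNA a cell held. Insulin-gated cells of each library were ranked by insulin share and the top and bottom of 3 equal ranges compared, with hormone genes left out of counts and totals. The median insulin share was 11.6%, 21.8%, 6.14% and 2.55% in the bottom range and 18.8%, 35.2%, 10.3% and 7.71% in the top. Pcsk1 was at 225, 318, 278 and 171 CPM in the top and 217, 284, 249 and 124 in the bottom range, higher in 4 of 4 libraries (0.23 ± 0.09). With edgeR its adjusted p was 0.569 and its unadjusted p 0.0282. The other 4 genes differed by 0.056 to 0.13, with adjusted p from 0.770 to 0.917. In mutant B these 4 were instead lower in the top range. Pcsk2 was at 2430 against 2619 CPM there and Cpe at 4060 against 4428. Pcsk1n was at 350 against 378 and Scg5 at 1031 against 1082. Scg5 was also lower in the top range of mutant A, and the remaining values were higher. None of the 5 was called, against 0.842% of the 11281 genes tested. DESeq2 was not run on this comparison.

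Other genes of prohormone processing, a list of 30, were compared between the same gates. Of 27 tested between insulin-gated and glucagon-gated cells, 13 were higher in the insulin gate, 2 were lower and 12 were not called, with a median log2 difference of 0.52 against -0.016 over all genes. Over all genes 12.2% were called higher and 9.4% lower, so the 2 lower are near the background. Ero1lb, an oxidase that serves disulfide formation in the endoplasmic reticulum and is known for its role in proinsulin folding, was at 709, 532, 1044 and 767 CPM in insulin-gated and at 64.8, 55.0, 54.8 and 53.8 in glucagon-gated cells (3.86 ± 0.42, edgeR adjusted p = 2.30e-07). The granins Scg2 (2.02 ± 0.25) and Chga (1.75 ± 0.20), proteins of the granule core, and Sec11c (1.88 ± 0.20), a catalytic subunit of signal peptidase, were higher as well. The other signal peptidase genes on the list, Spcs1, Spcs2, Spcs3 and Sec11a, were also called higher (0.99 to 1.23).

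Lower in insulin-gated than in glucagon-gated cells were Pam, which amidates peptide ends (-1.12 ± 0.24, edgeR adjusted p = 0.00123), and Vgf, a granin-like precursor (-0.98 ± 0.24, edgeR adjusted p = 0.00369). Pam was also lower in insulin-gated than in somatostatin-gated cells (-1.25 ± 0.24, edgeR adjusted p = 0.000829). None of the other convertase genes Furin, Pcsk4, Pcsk5, Pcsk6 and Pcsk7 was called between the insulin and glucagon gates, so that Pcsk1 was the one convertase gene tested that was. Against somatostatin-gated cells 12 of 27 were higher and 2 lower in the insulin gate, with a median of 0.37 against 0.11 over all genes, of which 8.9% were called higher and 5.45% lower. Between the glucagon and somatostatin gates 1 was higher and 5 lower (median -0.19 against 0.095), where 4.83% of all genes were called higher and 4.9% lower. In cycling cells 2 of 27 were higher and 7 lower, against 9.73% and 7.1% of all genes. Ero1lb was the furthest (-0.64 ± 0.07, edgeR adjusted p = 3.10e-07). No gene of the list was called between labels in any of the 3 gates, where 29, 26 and 20 were tested by edgeR.

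Over the 20 sums of 5 gates by 4 libraries, genes were ranked by Pearson's r with each member on log2(CPM + 1), among 5521 genes. The sums share libraries and depth, and r here mostly reflects the contrast of endocrine and other cells, so it is given as a description. Nearest to Pcsk1 were Wfs1 (0.935), Iapp (0.933) and F2 (0.922), and nearest to Pcsk2 were Fam183b (0.984), Celf3 (0.976) and Rimbp2 (0.975). Cpe was nearest to Cep170b (0.970), Peg3 (0.967) and Sgms2 (0.946). Pcsk1n was nearest to Fam183b (0.967), Lgals3bp (0.966) and Abcc8 (0.965), and Scg5 to Celf3 (0.987), Bex2 (0.984) and Hap1 (0.982). Among the 5 genes themselves the highest value was 0.978 for Pcsk2 with its chaperone gene Scg5. Pcsk1n was close behind, at 0.965 with Scg5 and 0.962 with Pcsk2. Pcsk1 was at 0.705 with Pcsk1n, which encodes its inhibitor, and 0.552 with Cpe.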

How the data were processed

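The deposited files hold counts per gene and barcode for 4 inDrop libraries, whole numbers that the authors had not normalized. GRCh38 and GRCm38 are the builds listed per the submitters' processing notes. For the aligner, annotation, counting program and treatment of molecular barcodes: not given in the sources used here. Total counts per library were 12835199, 9282495, 10350699 and 12236110. Of 38459 features 2 were not marked as mouse and were left out.

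Barcodes with at least 500 counts, 250 genes and at most 25% mitochondrial counts were kept (6566 of 6948). Scrublet in scanpy 1.11.5, run per library, marked 40 of these (0.609%) as doublets, which were removed. Cells were gated on hormone share (2%), and cells under every gate on at least 3 counts and 0.1% of counts over a marker list. Counts were summed per library and gate, and a comparison was run where every library had 20 cells of each gate. The edgeR 4.0.16 quasi-likelihood F test was used on TMM-scaled sums after filterByExpr, with p adjusted by Benjamini-Hochberg over all genes tested (threshold 0.05). The library was a block in gate comparisons, fitted on 5 gates together, and label comparisons had no block. The SE is the absolute log2 difference divided by the square root of F. DESeq2 1.42.0 was run on the same sums. Ratios of counts were compared by exact permutation. CPM are counts scaled to a total of 1000000 over the summed cells, and fitted differences use TMM-scaled totals, so they need not equal CPM ratios. Fits were also run on sums simulated around 1 mean per gene without offsets between libraries. That run therefore says nothing about offsets such as that between A and B.

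Genes named are the 5 members, Sin3a, up to 4 genes of the pathway list per direction between insulin-gated and glucagon-gated cells, and the 3 nearest genes of each member. Further genes of the list were named after their values were seen. The members, lists, gates and tests were chosen with earlier results of these data known.

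Whether title numbers pair libraries was checked through the correlation of deviations from the label means of libraries with the same number. It was 0.062 over 10761 genes in insulin-gated, 0.28 in glucagon-gated and 0.34 in somatostatin-gated cells. With 2 pairs and no statement of what the number marks, the libraries were treated as unpaired.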

Additional observations from a re-analysis of the deposited data

How the results depend on the processing

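Alternatives were a gate of 1% or 5%, at most 10% mitochondrial counts, doublets kept, hormone genes left out, RLE size factors, DESeq2, no filter on low counts, the block added or dropped, a fit of 2 gates alone and each library left out. RLE, DESeq2 and left-out hormone genes were added for cycling cells after seeing the data. Pcsk1 kept its direction and its call in the 3 comparisons between hormone gates under each of these, and the cause of the changes below was not tested.

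Genes called between labels in insulin-gated cells numbered 1 with DESeq2, 1 with a replicate block and 5 without the filter, where Pcsk1n was at -0.023. With the replicate block in glucagon-gated cells Cpe was at -0.10 and Pcsk1n at -0.071. In somatostatin-gated cells 3 genes were called without the filter, and Cpe was at 0.052 without it and 0.077 with a gate of 5%. Dropping the filter also gave 13 calls for the difference of label effects, 2960 for insulin against somatostatin, 3481 for cycling cells and 237 for the ranges of insulin share (63 after thinning). DESeq2 called 1314 genes in cycling cells. Without the replicate block 866, 703 and 431 genes were called between insulin and glucagon, insulin and somatostatin, and glucagon and somatostatin gates, and with only the 2 gates fitted 3596 for the first. Without the block Cpe lost both its calls against the somatostatin gate (edgeR adjusted p = 0.503 and 0.401). The call of Pcsk2 between glucagon and somatostatin gates was lost with a gate of 5%, 10% mitochondrial counts, doublets kept, RLE, no block and 2 gates alone (adjusted p from 0.0569 to 0.274).

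Insulin minus glucagon, Scg5 was at -0.0034 with 10% mitochondrial counts and Cpe at 0.060 without the filter. Insulin minus somatostatin, Scg5 was at -0.020 and -0.057 with gates of 1% and 5%, -0.025 with 10% mitochondrial counts, and -0.036 with DESeq2 and with RLE. Pcsk2 was at -0.028 with a gate of 5% and was called without the filter (0.50, edgeR adjusted p = 0.0169), and Pcsk1n was then at 0.23. Glucagon minus somatostatin, Scg5 was at -0.073, -0.10, -0.022, -0.016, -0.075, -0.074 and -0.044 with gates of 1% and 5%, 10% mitochondrial counts, doublets kept, DESeq2, RLE and 2 gates. The label difference of the convertase ratio in insulin-gated cells was 0.043 with a gate of 5%. Dropping the filter shifted the median gene by 0.22, 0.36 and 0.13 in the comparisons between hormone gates, and calls split 2198 to 854 for insulin against glucagon, 2381 to 579 for insulin against somatostatin and 766 to 523 for the third, against 1256 to 970, 919 to 563 and 499 to 506.

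Thinned to 1000 counts, the share of insulin-gated cells with Pcsk1 was 20.5%, 18.5%, 17.5% and 9.80%, of glucagon-gated cells of mutant B 1.34%, and of somatostatin-gated cells of mutant A and B 3.85% and 3.23%.

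With each library left out in turn, label calls numbered 0 to 5 in insulin-gated, 0 to 3 in glucagon-gated and 1 to 21 in somatostatin-gated cells. Label differences in insulin-gated cells ranged from -0.57 to 0.015 for Pcsk1, -0.83 to 0.42 for Cpe and -0.79 to 0.87 for Pcsk1n. In glucagon-gated cells they ranged from -0.28 to 0.14 for Pcsk2, -0.87 to 0.61 for Cpe and -1.43 to 1.03 for Pcsk1n. In somatostatin-gated cells they ranged from -0.42 to 0.33 for Pcsk1, -0.30 to 0.35 for Pcsk2, -0.97 to 0.54 for Cpe and -1.22 to 1.30 for Pcsk1n. The difference of label effects ranged from -1.26 to 0.018 for Pcsk1, -0.11 to 0.16 for Pcsk2, -0.38 to 0.23 for Cpe, -0.20 to 0.59 for Pcsk1n and -0.051 to 0.25 for Scg5. Between gates, Scg5 ranged from -0.020 to 0.14 for insulin minus glucagon and -0.11 to 0.061 for glucagon minus somatostatin. Insulin minus somatostatin, Pcsk2 ranged from -0.0016 to 0.19 and Pcsk1n from -0.39 to 0.030. Calls numbered 847 (without WT A) to 1406 for insulin against somatostatin, 605 to 820 for glucagon against somatostatin, 1355 (without WT A) to 2210 for cycling cells and 56 to 152 for the ranges of insulin share. The label difference of the convertase ratio ranged from -0.45 to 0.17 in insulin-gated and -0.56 to 0.42 in somatostatin-gated cells. A library left alone under its label is assumed to vary like the others. Few counts limit Pcsk1 outside the insulin gate.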
